A study of Mus musculus with 15 samples.

Results

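The regions described here were stretches of chromatin that carried trimethylated lysine 36 of histone H3 (H3K36me3) in mouse bone marrow-derived macrophages (BMDMs), were called in all 4 H3K36me3 libraries, and had their midpoint outside every protein-coding gene body. They were selected on the H3K36me3 calls alone, by merging the 4 lists of called regions on chromosomes 1 to 19 and X, and keeping merged regions narrower than 20 kb that every list overlapped. Of 58512 merged regions, 56326 were narrower than 20 kb, 13083 of these (23.2%) were called in all 4 libraries, and 721 of those had an intergenic midpoint. The other 12362 had their midpoint inside a protein-coding gene body and are called the genic regions below. Because the H3K36me3 lists chose the regions, H3K36me3 values are given as a description and were not tested.

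The study compared macrophages with and without the histone variant H3.3, which is encoded by H3f3a and H3f3b. CUT&RUN, in which a nuclease tethered to an antibody cuts out the DNA around a histone mark for sequencing, was run in duplicate for 5 groups. WT cells were H3f3a fl/fl:H3f3b fl/fl without Cre, and the H3.3cKO cells (cKO below) had the same floxed alleles with LysM cre/cre, where Cre is expressed from a myeloid gene; H3K36me3 and H3K27ac, the acetylation of lysine 27 of histone H3, were profiled in both. The H3.3-HA mouse carried an HA epitope tag on the H3f3b product, so that an HA antibody read the tagged protein and not H3.3 made from H3f3a. All cells came from C57BL/6 mice of 8 to 10 weeks and were cultured for 6 to 8 days in medium conditioned by L929 cells, and whether cells of several mice were pooled for a library was not given in the sources used here.

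H3K36me3 is laid down by SETD2, which travels with elongating RNA polymerase II, and the mark is therefore known for filling the bodies of transcribed genes toward their 3′ ends. Transcription usually continues for some distance past the cleavage and polyadenylation site before the polymerase leaves the DNA, and long noncoding RNA genes and microRNA host genes are transcribed by the same polymerase. H3.3 is the replacement variant that is put into chromatin outside of S phase, at active promoters, enhancers and gene bodies and, through a separate chaperone, at silent repeats.

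Among the microRNAs with a mature sequence in the RefSeq table used, the intergenic regions held 41 mature microRNAs of 23 genes. They were spread over 14 of the 721 regions. They are shown because some seeds recur among them, those of the let-7 family at separate loci. A microRNA pairs with its targets mainly through its seed, bases 2 to 8, which is printed in capitals. Sequences and positions are from RefSeq on GRCm38 (mm10). The 41 had 31 different seeds, of which 5 were shared. Of the shared seeds, UAUACAA, found in 4 let-7 microRNAs whose names end in -3p, is not printed below. The seed GAGGUAG, that of the let-7 family, occurred in 5 of them at 2 loci, on chromosome 13 and on chromosome 15:
let-7d-5p, chr13:48536078-48536099, minus strand: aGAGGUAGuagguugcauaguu
let-7f-5p, chr13:48537889-48537910, minus strand: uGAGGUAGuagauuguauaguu
let-7a-5p, chr13:48538239-48538260, minus strand: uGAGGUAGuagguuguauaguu
let-7c-5p, chr15:85706616-85706637, plus strand: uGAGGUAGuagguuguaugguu
let-7b-5p, chr15:85707325-85707346, plus strand: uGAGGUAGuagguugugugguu

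The miR-17-92 cluster on chromosome 14, which is known for promoting cell proliferation, contributed 2 pairs with a shared seed, AAAGUGC and GUGCAAA, and the miR-29 locus on chromosome 1 contributed a pair with AGCACCA:
miR-17-5p, chr14:115043684-115043706, plus strand: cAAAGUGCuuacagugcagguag
miR-20a-5p, chr14:115044183-115044205, plus strand: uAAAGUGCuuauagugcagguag
miR-19a-3p, chr14:115044048-115044070, plus strand: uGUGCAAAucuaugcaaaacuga
miR-19b-3p, chr14:115044358-115044380, plus strand: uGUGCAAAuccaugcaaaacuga
miR-29b-3p, chr1:195037091-195037113, plus strand: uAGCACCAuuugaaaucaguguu
miR-29c-3p, chr1:195037600-195037621, plus strand: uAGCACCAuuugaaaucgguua

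The seeds of the following microRNAs were not shared with another in these regions. miR-223 is abundant in myeloid cells, miR-146a restrains inflammatory signalling, miR-34a is a target of p53, and miR-101a is known for targeting Ezh2:
miR-223-3p, chrX:96242884-96242905, plus strand: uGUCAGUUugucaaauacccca
miR-146a-5p, chr11:43374435-43374456, minus strand: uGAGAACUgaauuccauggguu
miR-34a-5p, chr4:150068473-150068494, plus strand: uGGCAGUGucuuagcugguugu
miR-101a-3p, chr4:101346957-101346977, minus strand: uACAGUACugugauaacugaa

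For the longer regions, 200 bases inside the longest stretch covered in all libraries concerned are shown from the plus strand of GRCm38 (RefSeq), with CpG dinucleotides in capitals because most of these stretches hold few of them. The first set is from 3 of the regions with the highest H3.3-HA coverage, inside both H3.3-HA replicates:
Past the end of Tuba1b, chr15:98931082-98931281: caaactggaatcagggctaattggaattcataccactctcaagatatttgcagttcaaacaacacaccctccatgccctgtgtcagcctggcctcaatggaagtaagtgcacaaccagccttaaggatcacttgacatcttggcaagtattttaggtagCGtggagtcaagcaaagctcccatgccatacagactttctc
Snhg1, chr19:8725712-8725911: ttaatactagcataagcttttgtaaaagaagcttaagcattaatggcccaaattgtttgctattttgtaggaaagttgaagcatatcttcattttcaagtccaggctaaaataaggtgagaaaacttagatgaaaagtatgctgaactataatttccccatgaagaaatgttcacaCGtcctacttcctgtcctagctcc
Malat1, chr19:5797492-5797691: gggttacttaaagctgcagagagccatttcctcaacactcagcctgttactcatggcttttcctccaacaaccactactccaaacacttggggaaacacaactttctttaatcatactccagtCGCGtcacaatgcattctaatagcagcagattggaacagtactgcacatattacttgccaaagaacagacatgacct

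The second set is from the 3 regions farthest from any protein-coding gene, inside a stretch called in all 4 H3K36me3 libraries:
Gm28187, chr1:101897566-101897765: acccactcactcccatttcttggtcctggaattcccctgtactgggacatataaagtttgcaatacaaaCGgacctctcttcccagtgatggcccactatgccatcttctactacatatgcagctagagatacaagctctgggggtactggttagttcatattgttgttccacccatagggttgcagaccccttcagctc
Chromosome 2, no annotated gene, chr2:46375045-46375244: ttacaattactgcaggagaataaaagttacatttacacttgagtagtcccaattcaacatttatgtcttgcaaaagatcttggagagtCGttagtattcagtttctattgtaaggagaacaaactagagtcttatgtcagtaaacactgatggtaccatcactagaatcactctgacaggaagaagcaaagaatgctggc
Gm6634, chr3:70791370-70791569: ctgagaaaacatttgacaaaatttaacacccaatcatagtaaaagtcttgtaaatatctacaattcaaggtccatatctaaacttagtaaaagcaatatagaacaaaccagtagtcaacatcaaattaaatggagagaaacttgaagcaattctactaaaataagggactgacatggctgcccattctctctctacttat

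The intergenic regions had a median width of 3729 bp, from 532 to 19979 bp, and covered 3.49 Mb in all. The widest were a region past the convergent ends of Kctd20 and Stk38 (chr17:28960610-28980588, mm10, 19979 bp), the noncoding gene E430024I08Rik (chr13:74438181-74457785, 19605 bp) and the gap between Lamtor3 and Dapp1 (chr3:137919589-137939106, 19518 bp). The narrowest regions beyond the limit lay at Gm17655 (20757 bp), Gm37494 near Zfp619 (20994 bp) and Slc31a2 (21112 bp). In all, 36 intergenic regions of 20 kb or wider were called in all 4 libraries and were not counted.

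The midpoint rule does not place a region wholly outside genes. Of the 721 regions, 243 (33.7%) crossed the annotated 3′ end of a protein-coding gene, 45 (6.24%) had their midpoint within 5 kb past such an end without crossing it, and 4 crossed a gene start only. The remaining 429 (59.5%) are called remote. Of these 162 overlapped a GENCODE long noncoding RNA gene, 45 another noncoding gene or pseudogene, and 222 (30.8% of the 721) no annotated gene. RefSeq, a separate annotation, had a gene at 46 of those 222, 28 of them lncRNA and 13 protein-coding genes, so that 176 regions (24.4%) had no gene in either.

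Within the regions, the libraries differed in how much they called. The first and second WT libraries covered 72.7% and 74.8% of the summed length, and the first and second cKO libraries 47.0% and 81.8%. The first cKO library stood apart: it had the most tags of the 4 H3K36me3 libraries (23782914, against 14027132 to 23503055), but 19.3% of its tags lay in called regions against 46.5% to 50.2%, and its list covered 90.6 Mb against 163.3 to 170.3 Mb. The genic regions showed the same order, with 43.9% in that library and 79.1% to 82.3% in the others. Only 34.1% of the length was called in all 4 libraries, and 82 regions had no base called in all 4, since separate pieces of a merged region could satisfy the rule. Both WT libraries covered more than both cKO libraries in 205 regions (28.4%), and both cKO libraries covered more in 106 (14.7%); among genic regions these shares were 38.4% and 7.54%. The part of the weak first cKO library in these counts was not tested; without that library 1267 regions met the rule.

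**Figure D1:**
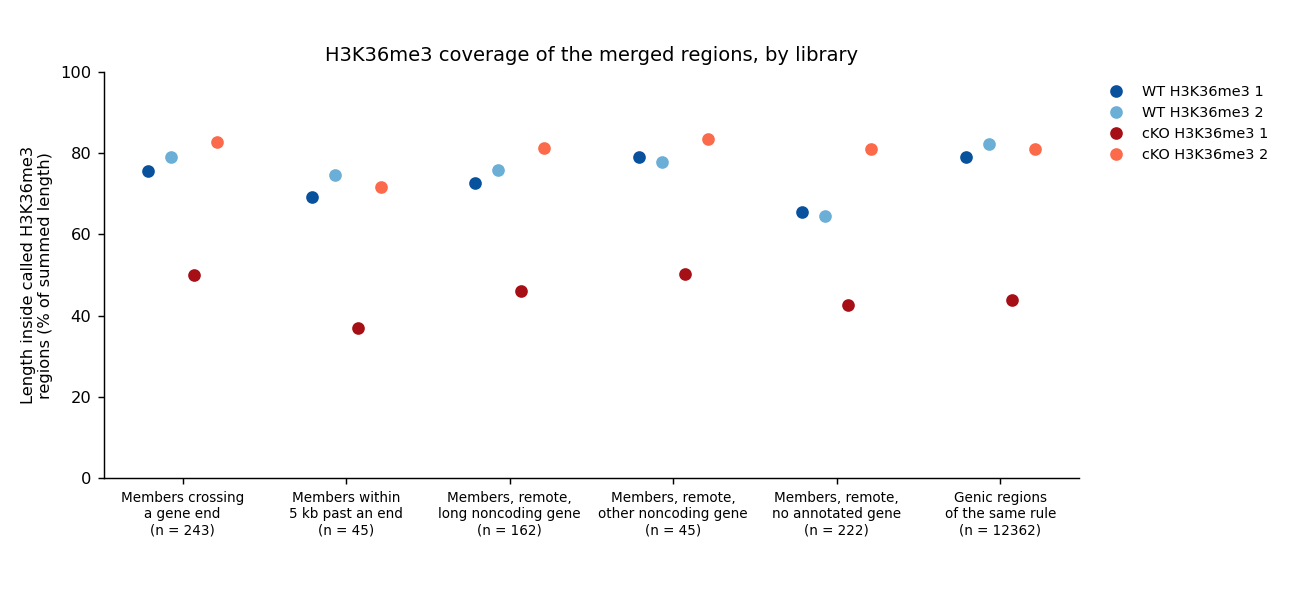
H3K36me3 coverage of each class of intergenic region and of the genic regions. Each point is 1 library (n = 2 per genotype); the vertical axis gives the percent of the summed length of the class inside that library's called regions. The 4 regions crossing a gene start only are not plotted. The first cKO library is the lowest point in every class shown, and the other 3 libraries lie close together except in remote regions without an annotated gene, where the second cKO library is highest.

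Zones past gene ends held more regions than zones of the same size before gene starts. Midpoints lay within 5 kb past a protein-coding gene end in 283 regions (39.3%), while such zones made up 4.63% of the intergenic length. Among the 473 regions wholly outside protein-coding gene bodies, a set without those that cross an end, this share was 9.30%. Zones of 5 kb before gene starts also held more than their part of the length, with 91 regions (12.6%) against 5.02%. Within 2 kb the contrast was 229 regions past ends (31.8%, against 2.07% of the length) and 23 before starts (3.19%, against 2.16%). Gaps between convergent genes, which face each other with their 3′ ends, held 29.8% of the regions and 18.5% of the intergenic length, and gaps between divergent genes held 20.2% and 26.4%. These shares compare places with a rule that used H3K36me3 and carry no test.

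At 290 protein-coding gene ends a region ran past the annotated end, and 48 of the 243 regions crossed 2 or more ends. The stretch past the end was measured to the last called base inside the region, or to the next protein-coding gene body, which stopped it at 99 ends. Gaps without a call were counted in it, so a stretch need not be continuous. Its median length was 2.09 and 2.20 kb in the WT libraries and 1.54 and 2.17 kb in the cKO libraries. The shortest stretch of the 4 libraries had a median of 1.38 kb, was 5 kb or more at 17 ends, and was 0 at 32. Both WT libraries reached farther than both cKO libraries at 77 ends and both cKO libraries farther at 39. The weak first cKO library had no region past 25 of the ends, against 3 to 6 in the other libraries. Its part in these counts was not tested, and no such counts at other gene ends are given. Gene models differ between annotations: the RefSeq gene went on at least 500 bases farther at 30 of the 284 ends matched by symbol, and a noncoding gene lay past the end inside the region at 32.

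The longest such stretches belonged to Cd46, which encodes a complement regulator. Its H3K36me3 reached 13.5 and 14.2 kb past the end in WT and 13.7 and 14.6 kb in cKO. Called H3K36me3 covered 85.0% and 84.4% of the whole region in WT and 51.5% and 96.1% in cKO. In the first cKO library the stretch was therefore broken by gaps. Here the region also lay on A330023F24Rik, the host of miR-29b-2 and miR-29c, so transcription of the noncoding gene and readthrough from Cd46 cannot be told apart. Ero1lb, which encodes an oxidoreductase of the endoplasmic reticulum, reached 13.6 and 13.5 kb in WT and 13.6 and 13.8 kb in cKO, over the pseudogene Gpr137b-ps. Oip5 reached 13.2, 13.3, 12.6 and 13.5 kb in the same order of libraries, over 1700020I14Rik, the conserved noncoding RNA also named Cyrano. In each of these 3 cases another annotated gene occupied the bases past the end.

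Clec2e, a lectin gene of the natural killer gene complex, had no noncoding gene past its end, and its H3K36me3 reached 8.20 and 8.22 kb in WT and 7.76 kb in both cKO libraries. Neither H3.3-HA replicate had a region there. The region past Alyref, which encodes an mRNA export adaptor, reached 6.81 and 7.21 kb in WT and 8.48 and 8.69 kb in cKO, and H3.3-HA covered 21.4% and 51.8% of the stretch. Tlr8, an endosomal receptor for single-stranded RNA, was crossed with 8.82 and 8.60 kb in WT and 5.84 and 9.35 kb in cKO, and its RefSeq model ended 1573 bases beyond the GENCODE end. The other genes among the 12 with the longest stretches were Gm10775, Gm36079, Ensa, Kcnk6, Ncaph and Mnat1. Their shortest stretch of the 4 libraries ran from 6.02 kb at Mnat1, where the next gene body stopped it in all 4, to 9.64 kb at Gm10775.

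The polyadenylation hexamer AATAAA, searched on the gene's own strand in the last 50 bases of the annotated gene, was present at 60.7% of the crossed ends and at 59.0% of all 21755 protein-coding genes. With ATTAAA added, the shares were 76.9% and 71.9%.

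H3.3-HA was measured in cells that the rule did not use. Of the 721 regions, 237 and 243 (32.9% and 33.7%) had an H3.3-HA region in the first and second replicate, and 191 (26.5%) in both, by an overlap of at least 1 bp. With at least 50% of the region covered in both replicates the share was 5.55%. The call by 1 bp in both replicates was met by 13.0% of all merged H3K36me3 regions under 20 kb and by 29.8% of the genic regions. The genic regions were wider, with a median of 6.13 kb against 3.73 kb. By width, the intergenic and genic shares were 7.63% and 10.6% below 2 kb, 23.2% and 18.3% at 2 to 5 kb, and 41.5% and 38.4% at 5 to 20 kb. By class, 47.3% of the regions crossing a gene end had H3.3-HA in both replicates, 22.2% of those just past an end, 27.8% of the remote regions over a long noncoding gene, 17.8% of those over another noncoding gene and 5.86% of the remote regions without an annotated gene. Among the 473 regions that lay wholly outside protein-coding gene bodies the share was 16.1%, and without the first cKO H3K36me3 library, which let in 1267 regions, 18%. The replicates taken singly kept these classes apart, with 52.7% and 58.4% at crossed gene ends and 13.5% and 9.46% without an annotated gene.

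Regions crossing a gene end were close to genic regions that also crossed an end, of which 46.4% (n = 3152) had H3.3-HA in both replicates. Width moved with this share. Among regions of 2 to 5 kb, 40.3% of the intergenic and 30.1% of the genic end-crossing regions had H3.3-HA in both, and among those of 5 to 20 kb 57.5% and 49.9%. Remote regions of the 3 width bins, below 2 kb, 2 to 5 kb and 5 to 20 kb, had H3.3-HA in both in 3.96%, 12.4% and 29.1%. The part of width in the difference between classes was not tested beyond these bins.

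Read along the gene ends, the H3.3-HA regions lay mostly past the end. In the first 4 kb past the 290 crossed ends, H3.3-HA covered 23.6% and 28.9% of the bases in the 2 replicates. The last 4 kb of the genes had 11.1% and 15.5%, and the bases from 4 to 8 kb past the end 9.79% and 14.7%. A further 1634 gene ends, not crossed by an intergenic region, were covered by H3K36me3 in all 4 libraries. They showed the same order, with 27.7% and 33.0% past the end and 17.3% and 22.7% before it. The 2 sets were chosen differently, since only 167 of the 290 crossed ends were themselves covered in all 4. The highest point over crossed ends was 1.12 kb past the end in the first replicate, at 30.5% of ends, and 1.38 kb in the second, at 33.9%. H3.3-HA lay past the end in both replicates at 118 of the 290 ends (40.7%).

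**Figure D2:**
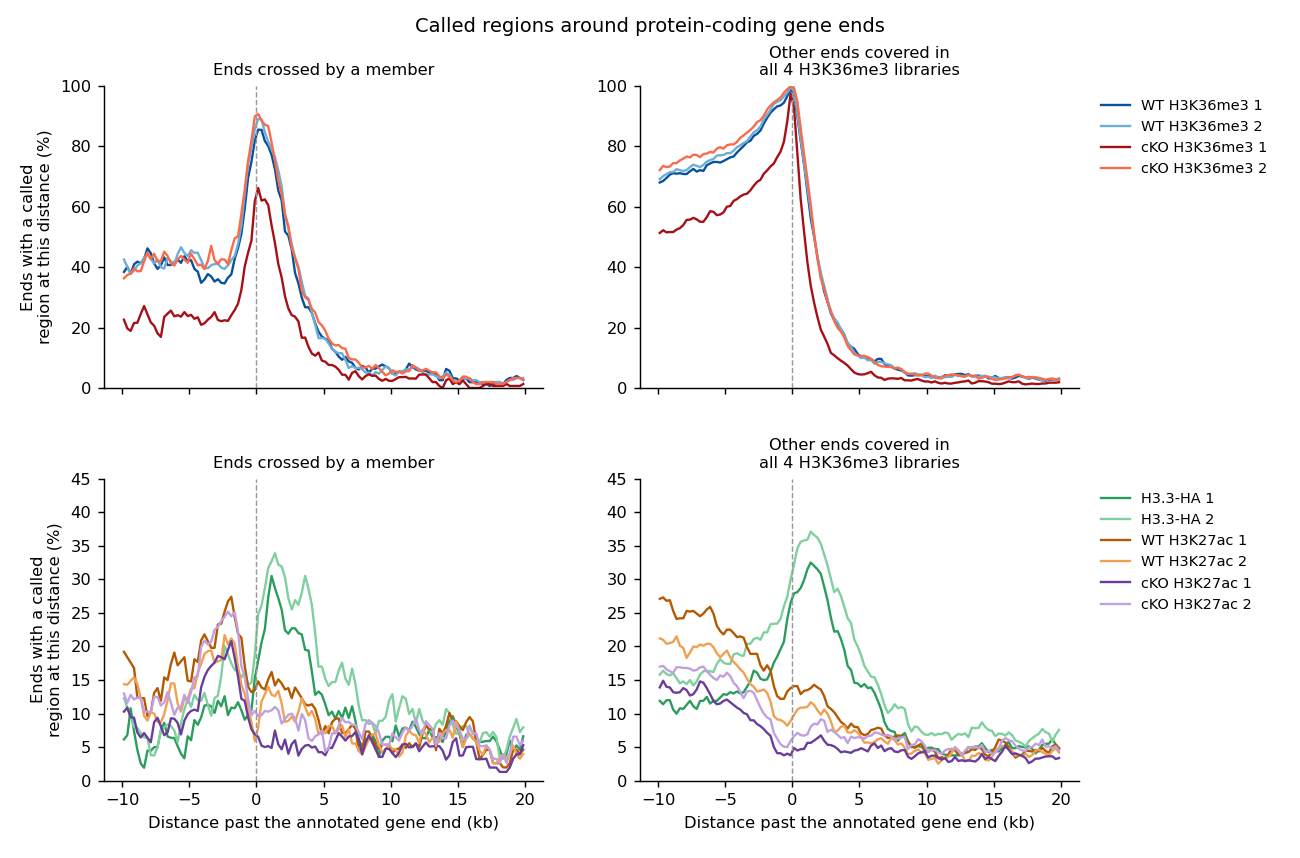
Percent of gene ends with a called region at each distance from the annotated end, in steps of 250 bases, from 10 kb inside the gene to 20 kb past it, for 290 ends crossed by an intergenic region (left) and 1634 other ends covered in all 4 H3K36me3 libraries (right). Upper panels show H3K36me3 and lower panels H3.3-HA and H3K27ac, 1 line per library. Of the 290 crossed ends, 167 were themselves covered in all 4 H3K36me3 libraries. H3.3-HA peaks past the end in both sets, whereas H3K27ac over crossed ends is highest before the end.

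The 10 regions of at least 1 kb with the highest H3.3-HA coverage were mostly at the ends of short protein-coding genes and at noncoding genes. The region crossing the end of Tuba1b, an alpha-tubulin gene, was covered to 98.6% and 99.1% by the H3.3-HA replicates. Snhg1, a host of small nucleolar RNAs (snoRNAs), had 96.0% and 89.8%. Malat1, an abundant nuclear RNA, had 80.7% and 100%. In the regions crossing the ends of the ribosomal protein genes Rps29 and Rps9 the values were 100% and 78.0%, and 91.2% and 79.4%. The rest were H3f3b, Snhg15, Gm38399, a region crossing the ends of Apoa2 and Fcer1g, and a region of 1.39 kb with no gene in either annotation (chr2:167362470-167363855). This last region, 13.3 kb from B4galt5, had 82.1% and 94.7% and no H3K27ac in any library. The region at Gm38399 overlaps the protein-coding gene Nav1 in RefSeq.

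H3f3b itself needs separate reading. It carries the HA tag in the H3.3-HA mouse and is a target of the deletion in cKO cells. The study, in a note to its RNA-seq read counts, describes the H3f3b deletion as complete in some cKO samples and partial in others. The region lay over the last part of the gene and past its end (chr11:116020360-116023082; H3f3b is on the minus strand, chr11:116021912-116027962). H3.3-HA covered 81.7% and 100% of it. H3K36me3 covered 23.7% and 31.6% in WT and 94.7% and 100% in cKO, and it reached 0 and 0.0320 kb past the gene end in WT against 1.46 and 1.55 kb in cKO. H3K27ac was not called in either WT library and covered 42.1% and 40.3% in cKO. Both marks were thus called over more of this region in both cKO libraries than in both WT libraries. The deletion of floxed exons alters this locus in cKO cells, and its part in these values was not tested. The HA tag was carried by the H3.3-HA mouse and not by the WT or cKO cells. Over the whole gene body H3K36me3 covered 10.7% and 14.2% in WT and 39.6% and 33.6% in cKO, and H3K27ac 23.9% and 24.1% in WT and 55.4% and 73.6% in cKO. H3f3a had H3K36me3 over 72.3% and 77.8% in WT and 67.9% and 73.0% in cKO.

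**Figure D3:**
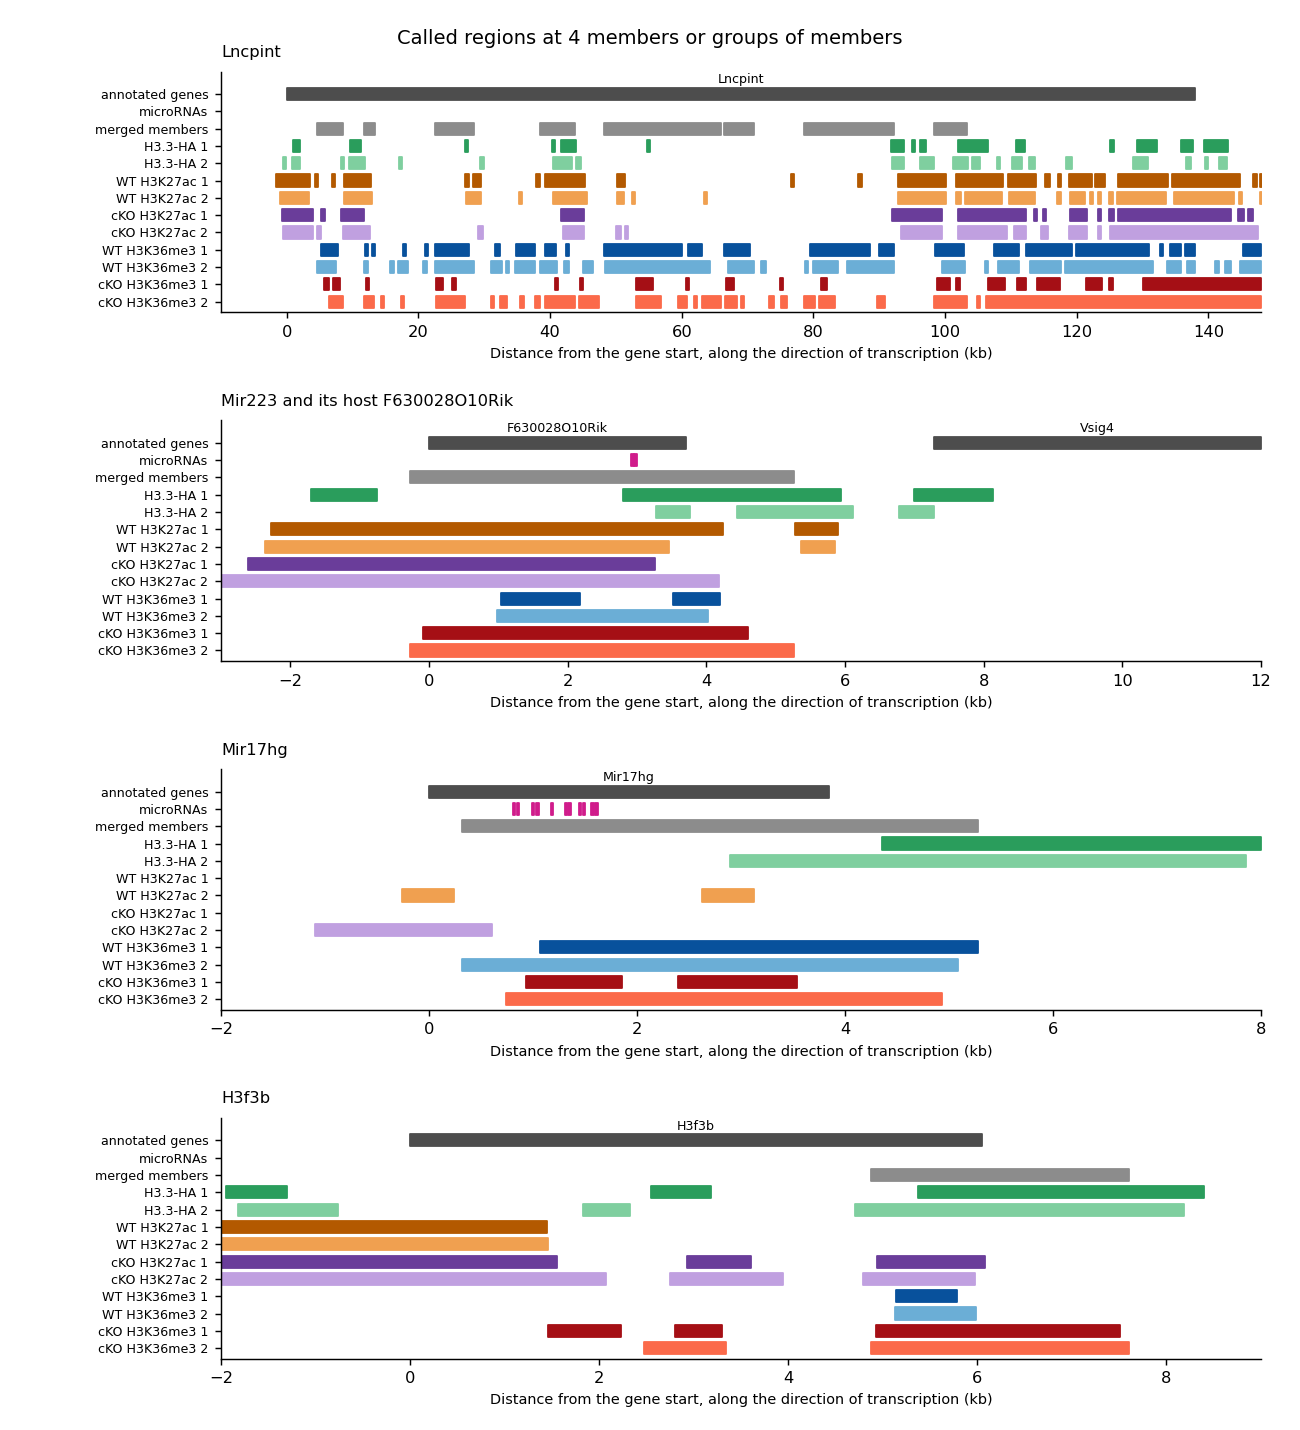
Called regions of the 10 libraries at Lncpint, at Mir223 with its host gene, at Mir17hg and at H3f3b. The horizontal axis is the distance in kb from the gene start along the direction of transcription, and bars mark annotated genes, mature microRNAs, the intergenic regions described here and the called regions of each library. At H3f3b the cKO H3K36me3 bars run past the gene end and the WT bars stop at or near it.

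Long noncoding RNA genes were overlapped by 198 regions (27.5%), and the midpoint lay inside such a gene in 24.0% of regions, against 9.46% of the intergenic length. They were 161 genes, or 1.68% of the 9603 long noncoding genes on these chromosomes. A median of 3.62 kb of each gene lay inside regions, 30 genes had 2 or more regions, and 52 had at least 50% of their length inside them. Of the 161 genes, 51 shared bases with a protein-coding gene body, and since CUT&RUN carries no strand, a mark on such bases cannot be assigned to either gene.

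Lncpint, a noncoding RNA known as a p53 target, held the most, with 8 regions and 57.8 kb (chr6:31117171-31215836; the gene is on the minus strand, chr6:31082565-31220488). H3K36me3 covered 77.0% and 82.3% of these regions in WT and 21.3% and 58.2% in cKO, so that both cKO libraries were below both WT libraries. Beyond them, toward the 3′ end of Lncpint, followed a merged region of 59.5 kb that was called in all 4 libraries and exceeded the width limit. H3.3-HA covered 9.51% and 10.1% of the 8 regions and was found in both replicates in 3 of them. H3K27ac covered 21.0% and 18.2% in WT and 10.6% and 12.5% in cKO.

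Trerf1 came next, with 6 regions and 47.9 kb. GENCODE M21 lists its transcripts as noncoding and RefSeq as protein-coding, so that it is intergenic only by the first annotation. H3K36me3 covered 74.6% and 85.7% of these regions in WT and 45.2% and 77.4% in cKO. H3.3-HA was nearly absent there, with 0% and 2.35%. E430024I08Rik and Gm6712 had 79% and 86.1% of their length inside regions, and no H3.3-HA or H3K27ac library covered any base of those regions. In 1810026B05Rik, by contrast, H3K27ac covered 94.9% and 94.7% of the region in WT and 47.9% and 65.6% in cKO, with H3.3-HA at 3.38% and 4.31%. The other genes among the 12 with the most length were Gm26573, A330023F24Rik, 5530601H04Rik, Gm38399, Lncppara, Mir99ahg and Gm48228, with 15.4 to 29.8 kb each.

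Of 10 microRNA host genes listed from general knowledge, 4 had a region: Mir17hg, Mir99ahg, Mirlet7bhg (named Lncppara in the annotation) and Ftx. Mir22hg was covered by a genic region, Dleu2 by a region wider than 20 kb, Mir142hg by regions of fewer than 4 libraries, and Mir155hg, Mir124a-1hg and Mir100hg had none. Of 16 snoRNA hosts 6 had a region, namely Gas5, Snhg1, Snhg5, Snhg15, Snhg17 and Snhg20, and 6 more were overlapped by genic regions. Snhg9 and Snhg18 had none, and Snhg4 and Snhg7 were not found in the annotation and could not be examined. By the GENCODE annotation, which includes microRNA genes without a RefSeq sequence used here, small RNA genes inside the regions numbered 45 snoRNA, 30 microRNA, 11 misc_RNA, 5 snRNA, 1 rRNA and 1 scaRNA genes.

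The snoRNA hosts, some of which belong to the class of growth-regulated genes with a 5′ terminal oligopyrimidine tract, differed in H3.3-HA. Over the gene itself it covered 81.7% and 73.8% of Snhg1, 42.3% and 45.1% of Snhg15, 41.4% and 47.6% of Gas5, 8.10% and 17.5% of Snhg17, 0% and 26.6% of Snhg5, and none of Snhg20. At Snhg20 the region ran past the end of the gene, and the H3.3-HA in it, 41.8% and 63.5% of its length, lay beyond the gene. Among hosts without an intergenic region, Snhg3 had 65.9% and 86.4% and Snhg12 53.7% and 60.4%, while Snhg8 and Snhg18 had none. In the Gas5 region, where H3.3-HA covered 73.7% and 79%, H3K27ac covered 78.7% and 100% in WT and 13.2% and 79.3% in cKO. At Snhg1, where H3.3-HA covered nearly the whole region, H3K27ac covered 0% and 10.9% in WT and 8.52% and 21.1% in cKO. High H3.3-HA coverage thus came with high WT H3K27ac coverage at Gas5 and with little at Snhg1.

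Among 13 genes listed as nuclear, imprinted or X-linked noncoding RNAs, Malat1 and Airn had a region, Neat1, Jpx and Peg13 had regions but none that all 4 libraries overlapped, Kcnq1ot1 lay under a genic region, and 7 had none (Xist, Tsix, Meg3, Rian, Mirg, H19 and Nespas). Every library called a part of Neat1, with 30.0% and 39.0% of the gene in WT and 7.24% and 55.5% in cKO, but not in a shared merged region. Airn, which silences the paternal Igf2r cluster, had 2 regions and no H3.3-HA or H3K27ac in them. Of 11 genes listed for immune or DNA damage roles, Lncpint, Pvt1 and Cyrano had regions, Morrbid, Trp53cor1 and Norad were called in fewer than 4 libraries, and 5 had none (Ptgs2os2, Mirt1, Mirt2, Lncenc1 and Epb41l4aos).

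The microRNA loci printed above differed in their marks. The miR-223 region (chrX:96239653-96245188) had H3K36me3 over 33.0% and 54.9% in WT and 84.7% and 100% in cKO, H3.3-HA over 44.6% and 23.8%, and H3K27ac over 81.5% and 67.3% in WT and 63.7% and 80.5% in cKO. The miR-146a region (chr11:43371952-43378708) had H3K36me3 over 96.8% and 87.8% in WT and 7.41% and 58.5% in cKO, and H3K27ac over 7.41% of its length in both WT libraries and none in cKO. Both cKO libraries were above both WT libraries at miR-223 and below them at miR-146a. These were read off after the values were seen and are not tested.

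The let-7 region on chromosome 13 had 64.3% and 41.9% H3.3-HA coverage, and the let-7 region on chromosome 15, which is the last part of Lncppara, 3.14% and 0%. The miR-17-92 region had 18.6% and 48.1%, placed past the microRNAs, wholly beyond the end of Mir17hg in the first replicate and over its last part and beyond in the second. Of the 41 mature microRNAs, 17 were themselves covered by H3K36me3 in all 4 libraries; at the others at least 1 library called another part of the region.

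H3K27ac, like H3.3-HA, was not part of the rule. It was found in 30.8% and 29.5% of the regions in WT and in 21.1% and 28.2% in cKO. The means were 30.2% ± 0.883 and 24.6% ± 5.0 (SD, n = 2 each), a difference of -5.55 percentage points, with an exact permutation p of 0.333 (two-sided), which is the smallest that 2 against 2 libraries allow. Covered length was 12.3% and 9.94% in WT and 6.22% and 9.06% in cKO, a difference of -3.47 points with the same exact p of 0.333. Without the first cKO H3K27ac library the difference in share was -2.01 points. The genic regions differed by -17.2 points in share, and by -5.88 points with lists of equal size, as described next. With every H3K27ac list cut to the 35018 longest regions, the number in the shortest list, the share was 25% and 22.9% in WT and 21.1% and 25.8% in cKO, so that the groups overlapped and the difference was -0.485 points (exact permutation p 1.00). The covered length after this cut was 10.6% and 8.85% in WT and 6.22% and 8.48% in cKO, which did not overlap, a difference of -2.37 points (exact permutation p 0.333).

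Single regions with H3K27ac in both WT and neither cKO library numbered 32 (4.44%), against 6.81% of all merged H3K36me3 regions under 20 kb. The opposite pattern was met by 8 regions (1.11%), against 0.939%. After the H3K27ac lists were cut to the same length these numbers became 16 and 14, against 4.36% and 1.46% of all merged regions. Leaving out a library changed these counts: without the first or second WT H3K27ac library, where a single WT library then sufficed, they were 53 and 23, or 52 and 15, without the first or second cKO H3K27ac library 40 and 27, or 60 and 12, and without the first cKO H3K36me3 library, which gave 1267 regions, 52 and 15. Of the 32 regions 18 crossed a gene end and 16 had H3.3-HA in both replicates, and of the 8, 6 and 4. Over all 721 regions these shares were 33.7% and 26.5%. Of the 174 regions with H3K27ac in both WT libraries, 90 crossed a gene end and 117 had H3.3-HA in both replicates. Of the 136 with H3K27ac in both cKO libraries, 74 and 97 did. The smaller of the 2 WT lengths had a median of 0.501 kb over the 32 regions and was above 1 kb in 5.

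Most H3K27ac in WT only was called in a region of 8.57 kb crossing the end of S1pr1, a sphingosine 1-phosphate receptor gene. The WT libraries covered 30.4% and 24.3% of it. Such percents are of the whole region, gene body bases included, and do not place the mark past the end. The others with the most crossed the ends of Blvra and Ncaph (16.3% and 10.3%), Ythdf3 (17.9% and 19.8%), Ciao2b (23.0% and 32.0%), Ero1lb (6.75% and 5.93%) and Fsd2 (20.3% and 9.92%). The Fsd2 region also held the host of miR-1839. H3K36me3 was called in all 4 libraries at each, by the rule, with 95.8% and 97.3% of the S1pr1 region in cKO. Besides H3f3b, H3K27ac in cKO only was called in regions crossing the ends of Oas1a (20.8% and 29.1%), Spcs1 (40.9% and 35.6%), Cox8a (8.64% and 26.1%) and Rps15 (20.7% in both). Oas1a encodes an interferon-induced 2′-5′ oligoadenylate synthetase. A further region lay near Rhof (20.1% and 53.4%). No region was tested on its own, since the lists hold no signal per region.

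**Figure D4:**
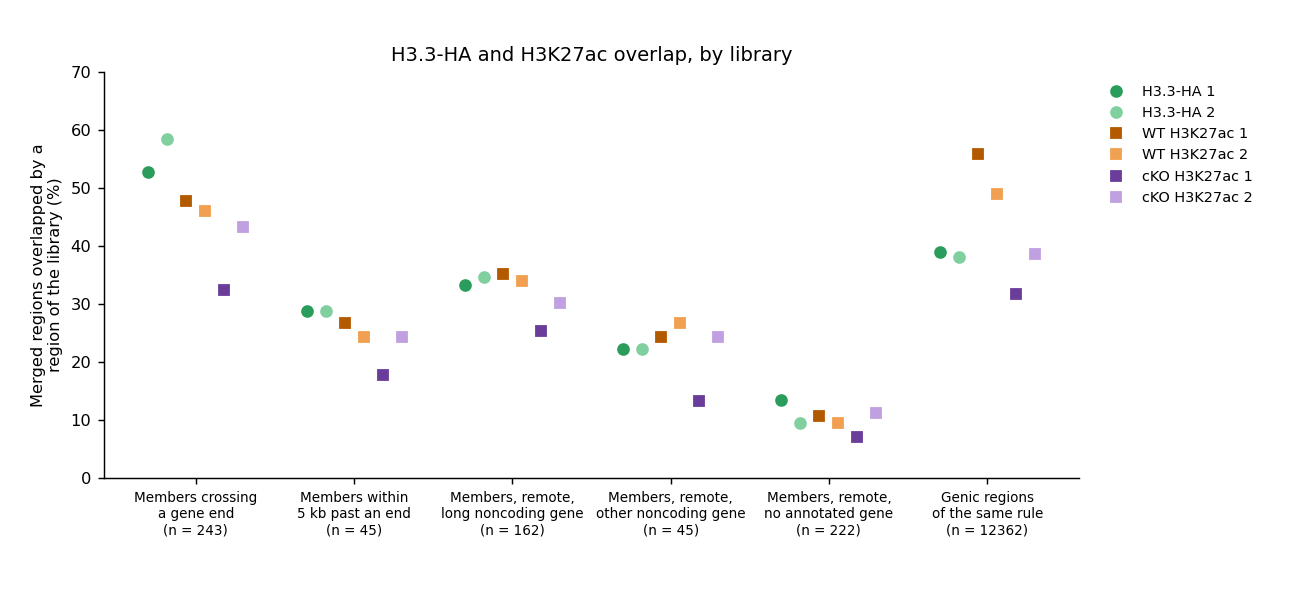
Percent of the regions of each class overlapped by at least 1 bp of an H3.3-HA (circles) or H3K27ac (squares) region, 1 point per library, with the genic regions at the right and the 4 regions crossing a gene start only left out. Regions crossing a gene end have the highest H3.3-HA shares, 52.7% and 58.4%, and remote regions without an annotated gene the lowest, 13.5% and 9.46%.

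Many regions carried H3K36me3 alone. Neither H3.3-HA nor H3K27ac was called in any library at 76.6% of the remote regions without an annotated gene, at 50.5% of all 721 regions, at 24.3% of those crossing a gene end and at 25.4% of the genic regions. The share was 77.1% of the intergenic regions under 2 kb, 77.3% of intergenic regions called in 1 to 3 libraries and 55.5% of all merged regions under 20 kb. At the other extreme, 81 regions (11.2%) had a called region in all 10 libraries. The widest of these were at Lamtor3, at Cd46 with A330023F24Rik, at the pseudogene Slfn10-ps, at Usp1 and at Gm20559.

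Remote regions lay a median of 23.1 kb from the nearest protein-coding gene, and 71 of them more than 100 kb. The farthest was at Gm28187 on chromosome 1 (chr1:101885353-101902045), 1399.4 kb from Cntnap5b. It was 16.7 kb wide, with H3K36me3 over 94.7% and 96.5% in WT and 22.9% and 85.3% in cKO. Next were a region on chromosome 2 without an annotated gene, 1256.5 kb from Zeb2 (chr2:46373880-46376922), with 70.6% and 90.4% in WT and 64.8% and 92.1% in cKO, and Gm6634 on chromosome 3, 760.7 kb from Otol1. Of the 6 farthest regions 5 had no H3.3-HA in either replicate, and the exception, on chromosome 4, had it in 1 replicate, over 27.2% of its length.

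Repeat-masked bases made up a median of 30.4% of a region, against 23.4% in genic regions and 41.6% in remote regions without an annotated gene. At least 50% of the bases were masked in 132 regions (18.3%), and in 3.46% of genic regions. Median GC content was 42.3% and 43.4% in the intergenic and genic regions, and the median number of CpG dinucleotides per 100 bases was 0.844 and 0.995. The motif GAGGAAG, a core of the site bound by the macrophage factor PU.1, was searched on both strands in the central 500 bases and occurred in 13.7% of the regions, 14.4% of the genic and 14.3% of all merged regions.

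Regions also clustered. Within 20 kb of another lay 158 regions (21.9%), and 17 groups of 3 or more held 66. After the 8 of Lncpint the largest group was 6 regions in 15.3 kb near Zfp986 on chromosome 4, with no H3.3-HA or H3K27ac in any library. Groups of 5 lay at the Slfn genes on chromosome 11, an interferon-inducible family, and between Amn1 and Resf1 on chromosome 6. A zinc finger gene with a Zfp symbol was the nearest protein-coding gene of 52 regions (7.21%), while 1.5% of the intergenic length is nearest such a gene and 1.81% of protein-coding genes are of this kind. H3.3-HA was in both replicates at 5 of the 52. This family was picked after its values were seen, and its members have similar sequences, so that reads placed in these clusters may come from a related copy.

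As a check of the label, 9 of 10 macrophage marker genes had H3K36me3 in their body in both WT libraries and 8 had H3K27ac at their start. None of the markers of neutrophils, T cells, B cells, dendritic cells, erythroid cells and stroma had H3K36me3 in the body in both, and the B cell gene Ms4a1 and the dendritic cell gene Xcr1 had H3K27ac at the start.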

How the data were processed

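Region lists of 10 CUT&RUN libraries of mouse BMDMs were used, 2 replicates in each of 5 groups: H3.3-HA, and H3K27ac or H3K36me3 in WT or in cKO cells. The 5 IgG controls were used only by the authors, as background for calling. Groups and replicate numbers came from the sample labels. The authors trimmed and aligned the reads to mm10 with Bowtie2 and called regions with HOMER in histone mode, separately per library; per the file headers, a peak size of 500 bp, a distance of 1000 bp, a 4-fold excess over IgG and a p-value limit of 1e-04 were set, and each genotype had a control of its own. The deposited lists give start and end positions and a score column that is constant, so no height or p-value per region was analysed here. Total tags numbered 5365319 to 6951296 for H3.3-HA, 16444864 to 29988098 for H3K27ac and 14027132 to 23782914 for H3K36me3.

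The 4 H3K36me3 lists were merged on chromosomes 1 to 19 and X, with 1-based mm10 coordinates, and regions under 20 kb called in all 4 with the midpoint outside every GENCODE M21 protein-coding gene body were kept. An overlap of at least 1 bp counted. Values per region are the percent of its length inside the called regions of a library. Shares of H3K27ac per library were compared by a two-sided exact permutation test, and H3K36me3 was not tested because it chose the regions. Sequences were read from the RefSeq GRCm38.p6 genome with soft-masked bases as repeats. The regions and gene lists were chosen with earlier results of these data known. Genes and regions named in the text are the 12 noncoding genes with most length in regions, the 12 gene ends with the longest stretch, the 10 regions with most H3.3-HA, the 6 farthest from a protein-coding gene, the 6 with most H3K27ac in a single genotype, the 3 widest, the 5 widest with all 10 libraries, the listed noncoding genes and the microRNAs; others are said to have been picked after their values were seen. Alternatives were leaving out each library, regions of at least 1 kb, at least 50% of the region covered, the whole region outside genes, other zones, gaps and biotypes, and the replicate block; H3K27ac lists of equal length and crossed pairs were added after seeing the data. Scripts were tested on simulated lists and used Python 3.11.15, pandas 2.3.3, numpy 2.4.6 and pysam 0.24.0.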

Additional observations from a re-analysis of the deposited data

How the results depend on the processing

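Of 94 recomputed values, 61 were labelled the same and 33 moved. Counts had to stay within 1.5 times the reported count, and shares inside the 95% binomial interval of the reported share. The H3K27ac differences had only to keep their sign, which they did in all 14 alternatives for the share and all 13 for covered length. The cause of the moves was not tested. When a single library was left out, the number of regions ran from 827 to 1267. The share within 5 kb past a gene end ran from 36% to 44.0%. The share with H3.3-HA in both replicates ran from 18% to 25.8% where an H3K36me3 library was left out. Without the first or second H3.3-HA replicate, the other alone gave 33.7% and 32.9%. Regions with H3K27ac in WT only ran from 36 to 60 and in cKO only from 9 to 27. Leaving out an H3K27ac library left 1 library of that genotype to decide the call. The highest number of regions came without the first cKO H3K36me3 library.

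With lists restricted to regions of at least 1 kb, 333 regions remained to be described, with 32.1% over a long noncoding gene, 48.9% within 5 kb past a gene end and 18 with H3K27ac in WT only. Asking each H3K36me3 library to cover at least 50% of a region left 205 regions; asking the same of H3.3-HA or H3K27ac over the 721 regions gave 5.55% with H3.3-HA in both replicates, and 12 and 3 regions with H3K27ac in WT or cKO only. With the whole region outside protein-coding gene bodies the values were 473 regions, 16.1% with H3.3-HA, 36.8% over a long noncoding gene, 9.30% past a gene end, and 14 and 2 with H3K27ac in WT or cKO only. Merging across gaps of up to 1 kb gave 35.2% past a gene end, zones of 2 and 10 kb gave 31.8% and 45.6%, and counting noncoding genes of every biotype gave 38.0%. H3K27ac lists of equal length, added after seeing the data, gave 16 and 14 regions in WT or cKO only.

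The replicate block left the H3K27ac differences at -5.55 and -3.47 points, with an exact sign-flip p of 0.5, the smallest that 2 pairs allow. Same-numbered H3K27ac libraries deviated with a correlation of -0.102 over the 721 regions, so the numbers did not pair them, and crossed pairs, added after seeing the data, gave the same differences and likewise no call.

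The lists carry no signal per region, so how far a missed region lay below the calling threshold is unknown. The exact permutation p-values cannot fall below 0.333 with 2 libraries per group and measure only the spread between these samples. Tags in called regions ranged from 11.8% to 50.2%. H3.3-HA lists came from the shallowest libraries, and an H3.3-HA region that was not called is not shown to be absent. The part of depth in missing calls was not tested.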
